A study of Mus musculus with 12 samples.

Results

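The 10 genes described here make up most of the MHC class II pathway as it appears in newborn mouse skull: the antigen-binding chains H2-Aa, H2-Ab1, H2-Eb1 and H2-Ea-ps, the invariant chain Cd74, the peptide-editing chains H2-DMa, H2-DMb1 and H2-DMb2, the editing inhibitor chain H2-Oa, and the transcriptional regulator Ciita. They were chosen by name from the 23358 rows of a gene count table, 1 row per gene, and 9 of the 10 passed a filter on low counts. RNA sequencing had been done on 12 samples of frontal bone from mice at postnatal day 3, dissected along with the nasal bone and nearby sutures. Each of 4 groups held 3 samples: C57BL/6 wild type, C57BL/6 mutant, BALB/c wild type and BALB/c mutant. The mutants were labelled FGFR2C342Y/+, a mouse model of Crouzon syndrome in which 1 of the 2 copies of the receptor gene Fgfr2 carries the C342Y change, and the skull sutures fuse early. The design asks how the mutation changes expression on each of the 2 genetic backgrounds. Gene counts do not show the mutant allele, and the labels give neither the sex of the animals nor whether a sample was 1 animal or a pool.

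MHC class II molecules are pairs of an alpha and a beta chain that carry peptides from taken-up material to the cell surface, where CD4 T cells read them. New pairs are held by the invariant chain Cd74 until it is cut away in the endosome, and the H2-DM pair then removes its last fragment and lets a peptide bind, while the H2-O pair restrains H2-DM. The genes are switched on together by Ciita, which does not bind DNA itself but joins the RFX, CREB and NF-Y proteins assembled on the X and Y boxes of their promoters. Dendritic cells, B cells and macrophages are the usual sources, and interferon gamma can induce the pathway in other cells. The strains carry different H2 haplotypes, H2b in C57BL/6 and H2d in BALB/c, and the H2b haplotype is known to lack a working E alpha gene, so that C57BL/6 mice make no I-E molecule.

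The promoters are shown because Ciita is thought to act on the members through these elements. RefSeq promoter windows of GRCm38.p6, which run from 250 bases before to 50 bases after a start, were matched for 6 of the 10 members. The Y box letters TGATTGG, searched on both strands, were found in 5 of them, and the X box letters AACNGATG in 3. Both motifs were chosen after these sequences had been seen, and they do not overlap each other. Of all 32851 promoters in the table, 7.82% held the Y box letters, 2.32% held the X box letters and 0.186% held both. Each segment of 87 bases below is written 5′ to 3′ along the gene's own strand, with the matched letters in capitals. The sequences are those of the reference, which is a C57BL/6 genome.
H2-DMb1: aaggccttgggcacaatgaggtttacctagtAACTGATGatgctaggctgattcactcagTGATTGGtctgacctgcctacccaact
H2-DMb2: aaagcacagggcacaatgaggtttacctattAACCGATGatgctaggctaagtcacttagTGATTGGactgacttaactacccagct
H2-Eb1: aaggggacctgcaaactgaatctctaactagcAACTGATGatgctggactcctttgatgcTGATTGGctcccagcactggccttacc
H2-Aa: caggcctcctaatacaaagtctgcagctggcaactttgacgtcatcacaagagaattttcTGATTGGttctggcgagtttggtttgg
H2-Oa: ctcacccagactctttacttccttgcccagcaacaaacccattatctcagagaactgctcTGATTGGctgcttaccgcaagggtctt
The segments lie at chr17:34153068-34153154 (plus strand) for H2-DMb1, chr17:34145097-34145183 (plus) for H2-DMb2, chr17:34305746-34305832 (plus) for H2-Eb1, chr17:34287847-34287933 (minus) for H2-Aa and chr17:34092274-34092360 (plus) for H2-Oa. The X and Y boxes are 21 bases apart in H2-DMb1 and H2-DMb2 and 20 bases apart in H2-Eb1. The segments of H2-DMb1 and H2-DMb2, the neighbouring pair of DM beta chain genes, resemble each other over most of their length. The H2-DMa windows (chr17:34122582-34122881 and chr17:34125268-34125567) held neither set of letters. They lie far before the start that the count table gives for this gene, chr17:34135671, and the first overlaps Brd2. The sequence at that start was not searched. In H2-Aa and H2-Oa only the Y box letters were found. X boxes with other letters were not searched for, so the absence of AACNGATG does not show that an X box is absent.

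The libraries held between 27181658 and 46521546 deposited counts. Every deposited count was even. This would arise if each read pair added 2 to a count, but how the counting was done is not given in the sources used here. The samples showed strong bone gene expression, with 6 osteoblast markers summing to between 61128 and 140247 CPM (counts scaled to each library's total, with trimmed mean of M values factors). Epithelial markers stood apart, at 121 to 222 CPM in C57BL/6 wild type, 3.35 to 68.0 CPM in C57BL/6 mutants and at most 6.12 CPM in BALB/c. Erythroid markers summed to 169 to 232 CPM in C57BL/6 wild type, 44.8 to 71.2 in C57BL/6 mutants, 175 to 288 in BALB/c wild type and 357 to 444 in BALB/c mutants, and 3 of 3 were called lower in C57BL/6 mutants by the test described below, beside 12.6% of all genes. Of 6 osteoblast markers, 4 were called higher in C57BL/6 mutants, beside 11.3%. The part of these markers in the values below was not tested. All C57BL/6 libraries carried 1 run identifier and all BALB/c libraries another, so strain and sequencing run cannot be told apart in any strain comparison. Mutants and wild types were compared within a run. The summed gene counts were 75.57% to 80.68% of the library total implied by the authors' RPKM values in C57BL/6 and 86.45% to 87.97% in BALB/c, a difference that moves with strain and whose part in the strain comparisons was not tested.

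Class II expression was low in all 4 groups, and the ranges of its total overlapped. The 10 members summed to 29.0 to 33.4 CPM in C57BL/6 wild type, 28.8 to 38.6 CPM in C57BL/6 mutants, 29.8 to 32.5 CPM in BALB/c wild type and 27.2 to 31.1 CPM in BALB/c mutants. The genes that made up the total differed between strains. Divided by coding length, the level of Cd74 ranked first in each group, at 9.27 CPM per kilobase (kb) in C57BL/6 wild type, 10.04 in C57BL/6 mutants, 8.92 in BALB/c wild type and 8.65 in BALB/c mutants. In C57BL/6 wild type, H2-Aa (3.58 CPM per kb) and H2-DMa (3.47) came next with overlapping ranges, followed by H2-Ab1 (2.86) and H2-DMb1 (2.57), which also overlapped, and H2-Eb1 (1.91). In BALB/c wild type, H2-DMa stood at 8.87 CPM per kb, within the range of Cd74, and H2-Ea-ps (2.63) and H2-Ab1 (2.44) overlapped in the next places. H2-DMb1 ranked eighth there, at 0.309 CPM per kb. In BALB/c mutants H2-DMa was 5.96 CPM per kb, below Cd74 in every sample, and H2-DMb1 was 0.172. H2-DMb2, Ciita and H2-Oa lay below 1 CPM per kb on average in every group. In a bulk sample, fewer cells of a type and less RNA per cell cannot be told apart, and this holds for each value below.

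**Figure D1:**
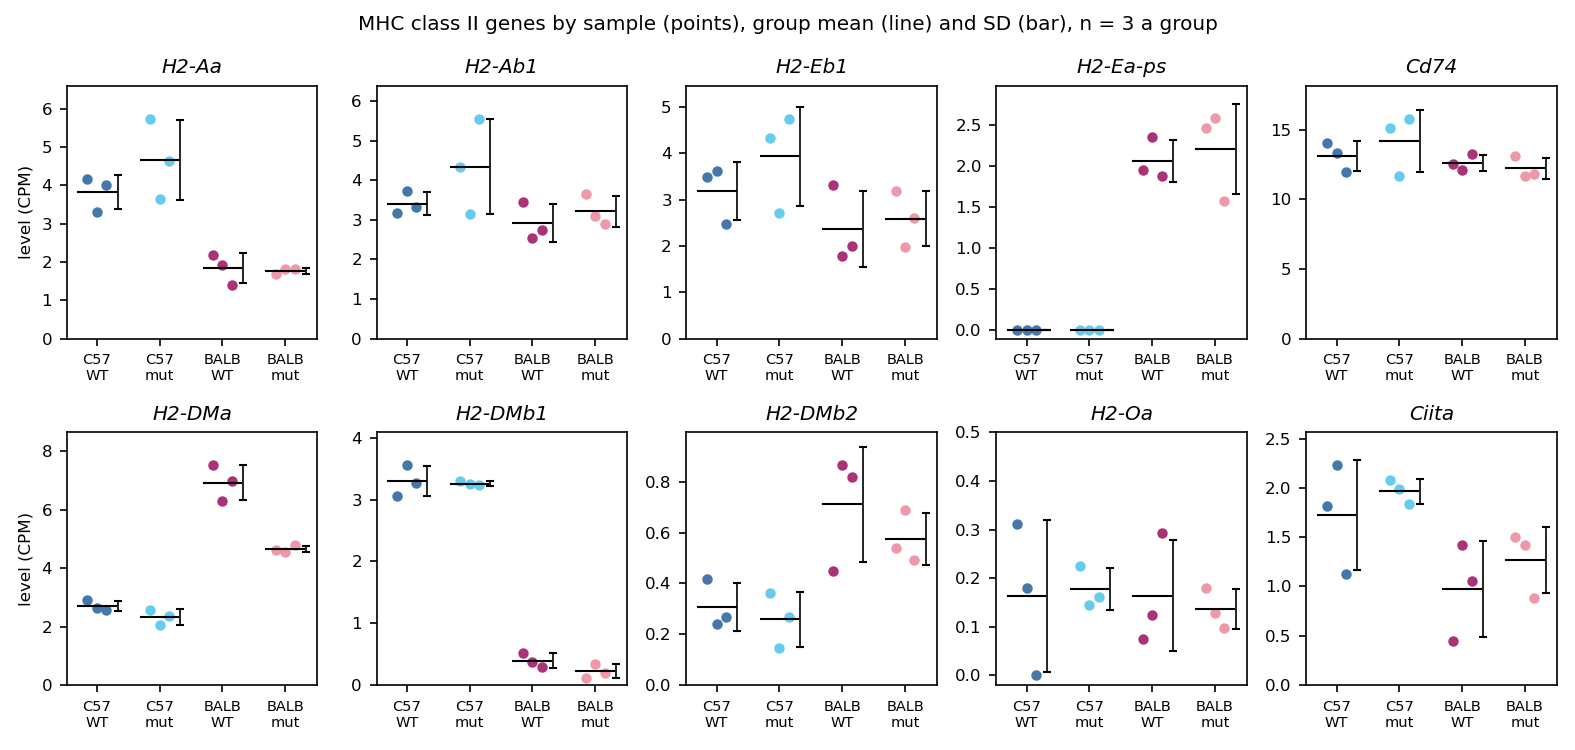
Level of each of the 10 class II members in CPM on a linear axis, with a separate scale for each gene. Points are samples, lines are group means and bars are SDs (n = 3 a group), and H2-Aa, H2-Ea-ps, H2-DMa, H2-DMb1 and H2-DMb2 separate the strains without overlap while Cd74 and H2-Ab1 do not.

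H2-Ea-ps had 0 counts in every C57BL/6 sample and passed the filter only through BALB/c, so its strain difference was fixed by the filter and it is left out of the counts in this paragraph. H2-DMb2, at 6 to 16 deposited counts in C57BL/6, also passed the filter only through BALB/c. Its strain results were therefore not independent of the filter, though the counts below include it. Between wild types of the 2 strains, 4 of the other 8 tested members (50%) were called at an adjusted p-value under 0.05 by edgeR's quasi-likelihood test, 2 higher and 2 lower in BALB/c. Over all 16190 tested genes the share was 48.5%, with 22.8% higher and 25.6% lower, so the count of members is near the background. Between mutants, 3 of 8 members (37.5%) were called, 1 higher and 2 lower, beside 36.9% of all genes (18% higher and 18.9% lower). The median log2 difference over the 8 members, BALB/c minus C57BL/6, was -0.33 in wild types and -0.52 in mutants, beside -0.00 over all genes in both. The CPM ranges of the strains did not overlap for 4 of the 8 in wild types, beside 57.5% of all genes, and for 5 of the 8 in mutants, beside 50.2%. The members' directions were mixed, and the 2 genotypes are given side by side for each gene.

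H2-DMb1, a beta chain of the peptide editor H2-DM (chr17:34153191-34160229), fell most among the members. It had 118, 118 and 122 deposited counts in C57BL/6 wild type and 146, 134 and 120 in C57BL/6 mutants, but 14, 12 and 10 in BALB/c wild type and 4, 16 and 8 in BALB/c mutants. Every C57BL/6 sample lay above every BALB/c sample. Among wild types, the C57BL/6 mean of 3.30 ± 0.245 CPM (SD, n = 3) stood against 0.396 ± 0.119 CPM in BALB/c, 8.33-fold lower by the fitted log2 difference of -3.06 (SE 0.325, edgeR adjusted p = 3.13e-05). In mutants it was 3.26 ± 0.0341 against 0.220 ± 0.114 CPM, 14.2-fold lower (log2 -3.83, SE 0.337, edgeR adjusted p = 8.49e-06). In the authors' deposited table, which gives C57BL/6 minus BALB/c, the log2 difference was 1.79 between wild types and 2.06 between mutants, smaller in size than the fitted values. Whether the deposited fold changes were shrunken is not given in the sources used here.

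The other beta chain, H2-DMb2 (chr17:34145416-34151095), was on the side opposite to H2-DMb1. Per kb of coding length it stood below H2-DMb1 in C57BL/6 wild type (0.392 against 2.57 CPM per kb) and above it in BALB/c wild type (0.906 against 0.309). It was 0.416, 0.241 and 0.268 CPM in C57BL/6 wild type against 0.451, 0.865 and 0.820 CPM in BALB/c wild type, and 0.361, 0.146 and 0.269 against 0.540, 0.689 and 0.492 CPM in mutants. The strain ranges did not overlap in either genotype. The wild type difference was called (log2 1.20, SE 0.438, edgeR adjusted p = 0.0392), and that between mutants was not (log2 1.14, SE 0.439, adjusted p = 0.0602). The wild type call was lost in 7 of 13 alternatives, including edgeR on total counts (adjusted p = 0.0800), DESeq2 (0.0512) and edgeR without C57BL/6 replicate 2 or 3 or BALB/c replicate 14 or 15 (0.110 to 0.119). The mutant difference was called without C57BL/6 mutant replicate 4 (adjusted p = 0.0486). H2-DMb2 passed the filter only through BALB/c, so these strain tests were not independent of the filter.

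The 2 beta chain genes share sequence, and reads could have been assigned to either or dropped from both. Of the 50-base words in H2-DMb1 transcripts of GENCODE, 22.7% also occur in another gene, always H2-DMb2. For H2-DMb2 the share is 25.9%, spread over 297 other genes that include H2-DMb1. Values of the separate genes are therefore uncertain, and their sum bears on the pair. H2-DMb1 and H2-DMb2 together gave 3.48 to 3.79 CPM in C57BL/6 wild type, 3.40 to 3.66 in C57BL/6 mutants, 0.977 to 1.24 in BALB/c wild type and 0.660 to 1.03 in BALB/c mutants. The sum was thus lower in each BALB/c sample than in any C57BL/6 sample. Within a library, H2-DMb1 counts were 7.38 to 22.3 times those of H2-DMb2 in the 6 C57BL/6 samples and 0.222 to 1.17 times in the 6 BALB/c samples.

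H2-DMa, the alpha chain that pairs with both (chr17:34135671-34138535), rose where H2-DMb1 fell. It was 2.91, 2.65 and 2.57 CPM in C57BL/6 wild type and 7.51, 6.30 and 6.97 CPM in BALB/c wild type, and 2.58, 2.04 and 2.37 against 4.62, 4.56 and 4.77 CPM in mutants. No sample of one strain reached the range of the other. The difference was 2.55-fold in wild types (log2 1.35, SE 0.147, edgeR adjusted p = 3.58e-05) and 2.00-fold in mutants (SE 0.147, adjusted p = 0.000296). The H2-DMb1 to H2-DMa count ratio, which needs no scaling between libraries, ran from 1.05 to 1.60 with a median of 1.31 in C57BL/6, and from 0.0260 to 0.0755 with a median of 0.0504 in BALB/c. Of the 50-base words of H2-DMa, 8.43% also occur in transcripts of the neighbouring gene Brd2.

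**Figure D2:**
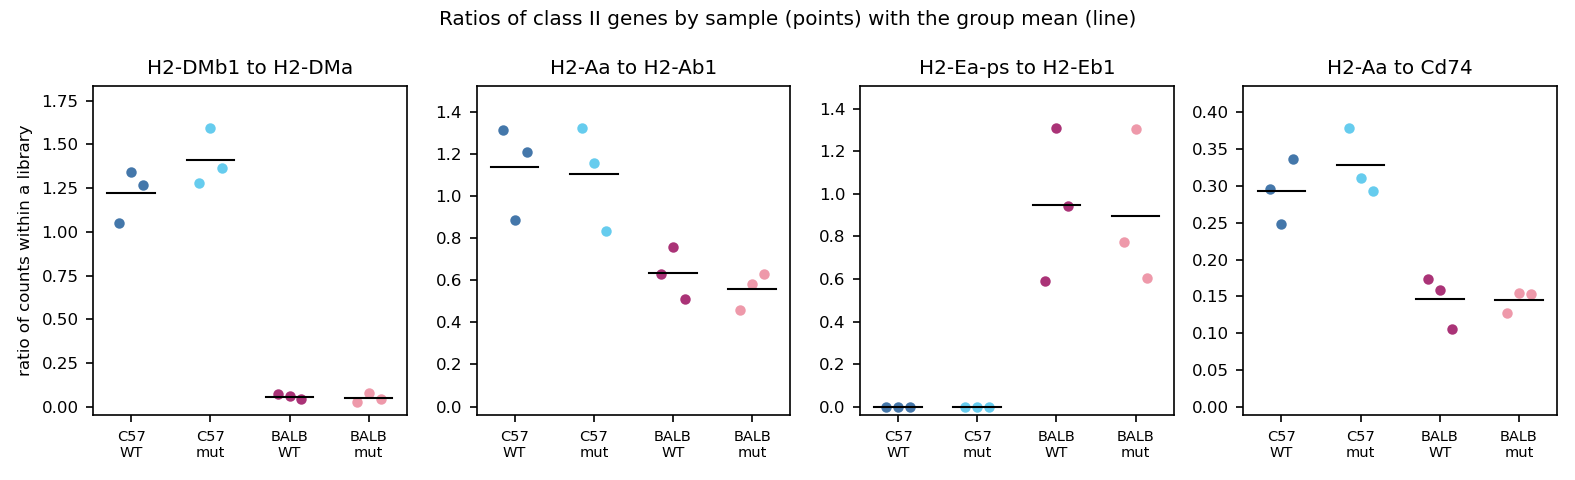
Ratios of deposited counts within a library for 4 pairs of class II genes, on linear axes, with points for samples and lines for group means (n = 3 a group). The H2-DMb1 to H2-DMa ratio is 1.05 or more in each C57BL/6 sample and 0.0755 or less in each BALB/c sample, and the H2-Aa ratios are lower in BALB/c.

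The alpha and beta chains of the I-A molecule did not move alike between strains. H2-Aa, the alpha chain (chr17:34282751-34287771), was 4.16, 3.31 and 4.02 CPM in C57BL/6 wild type and 2.18, 1.91 and 1.41 CPM in BALB/c wild type, and 5.74, 3.64 and 4.63 against 1.68, 1.81 and 1.82 CPM in mutants. It was lower in every BALB/c sample than in any C57BL/6 sample. The log2 difference was -1.07 in wild types (SE 0.220, edgeR adjusted p = 0.00218) and -1.40 in mutants (SE 0.219, adjusted p = 0.000460). H2-Ab1, its beta chain partner (chr17:34263227-34269418), was 3.17, 3.73 and 3.32 against 3.46, 2.53 and 2.75 CPM in wild types, and 4.34, 3.15 and 5.55 against 3.66, 3.10 and 2.90 CPM in mutants. These ranges overlapped. Its log2 difference was -0.23 in wild types (95% interval -0.71 to 0.25, edgeR adjusted p = 0.413) and -0.43 in mutants (-0.90 to 0.04, adjusted p = 0.135), with a call in mutants only when C57BL/6 mutant replicate 5 was left out (log2 -0.61, adjusted p = 0.0399). The H2-Aa to H2-Ab1 count ratio was 0.835 to 1.32 in C57BL/6 and 0.459 to 0.756 in BALB/c, without overlap. The difference between the 2 chains' strain effects was not tested.

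The alpha chain of the I-E molecule was seen in 1 strain. H2-Ea-ps, named as a pseudogene in the table and annotated by GENCODE as a polymorphic pseudogene (chr17:34342212-34344645), had 0 counts in all 6 C57BL/6 samples, and 52, 76 and 64 counts in BALB/c wild type and 82, 120 and 64 in BALB/c mutants. In CPM the BALB/c samples stood at 1.95, 2.35 and 1.87 (wild type) and 2.46, 2.58 and 1.57 (mutant). Against a floor of 6 deposited counts per library, taken as 3 read pairs, which covers counting error only, BALB/c exceeded C57BL/6 at least 11.4-fold among wild types and at least 13.6-fold among mutants. No test of this difference is given, for the reason stated above. H2-Eb1, the beta chain (chr17:34305867-34316674), was 3.48, 3.61 and 2.47 CPM in C57BL/6 wild type and 3.31, 1.79 and 1.99 in BALB/c wild type. In mutants it was 4.34, 2.72 and 4.74 CPM in C57BL/6 and 3.18, 1.98 and 2.61 CPM in BALB/c. The strains overlapped, so the beta chain RNA was present in C57BL/6 samples that held no count of the alpha chain. Its log2 difference was -0.44 in wild types (95% interval -1.09 to 0.22, adjusted p = 0.249) and -0.61 in mutants (-1.25 to 0.04, adjusted p = 0.127). In BALB/c the H2-Ea-ps to H2-Eb1 count ratio ran from 0.591 to 1.31. The authors' deposited table gives H2-Ea-ps log2 differences of -2.12 in wild types and -2.35 in mutants, as C57BL/6 minus BALB/c, which are smaller in size than the bounds above.

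Cd74, the invariant chain (chr18:60803849-60812652), lies outside the H2 region and varied little. It was 14.03, 13.4 and 11.95 CPM in C57BL/6 wild type, 15.1, 11.7 and 15.8 in C57BL/6 mutants, 12.5, 12.1 and 13.2 in BALB/c wild type and 13.1, 11.7 and 11.9 in BALB/c mutants. All 4 ranges overlapped. Its strain difference was -0.05 on the log2 scale in wild types (95% interval -0.30 to 0.20, edgeR adjusted p = 0.720) and -0.22 in mutants (-0.46 to 0.03, adjusted p = 0.156), with a call in mutants only without C57BL/6 mutant replicate 5 (log2 -0.33, adjusted p = 0.0209). Set against Cd74 in the same library, H2-Aa was 0.248 to 0.379 of its counts in C57BL/6 and 0.106 to 0.174 in BALB/c. H2-DMa moved from 0.150 to 0.215 of Cd74 in C57BL/6 to 0.352 to 0.599 in BALB/c, and H2-DMb1 from 0.205 to 0.278 to 0.00913 to 0.0419. The strain separation of these 3 genes was thus also present relative to Cd74, while the ratios of H2-Ab1 (0.226 to 0.352 and 0.208 to 0.279) and H2-Eb1 (0.206 to 0.300 and 0.148 to 0.263) overlapped.

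Ciita, the regulator (chr16:10480072-10527564), was 1.82, 2.23 and 1.13 CPM in C57BL/6 wild type, 2.08, 1.99 and 1.83 in C57BL/6 mutants, 0.451, 1.42 and 1.05 in BALB/c wild type and 1.499, 1.42 and 0.886 in BALB/c mutants. Wild types of the strains overlapped, and mutants did not. Neither difference was called: the log2 value was -0.81 in wild types (SE 0.390, edgeR adjusted p = 0.107) and -0.63 in mutants (SE 0.380, adjusted p = 0.213). Without BALB/c wild type replicate 14 the wild type difference was called (log2 -1.18, adjusted p = 0.0437). In the authors' deposited table the mutants' difference, C57BL/6 minus BALB/c, was 0.86 with q = 0.0108, and that of wild types 0.51 with q = 0.141. H2-Oa, the alpha chain of the DM inhibitor H2-O (chr17:34092379-34095234), had 0 to 12 deposited counts a library, at most 0.312 CPM, and did not pass the filter. With no filter, its edgeR log2 strain difference was 0.04 in wild types (adjusted p = 0.997) and -0.39 in mutants (adjusted p = 0.819). It overlaps the antisense gene BC051537, and the counting's strand setting is not given in the sources used here.

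By edgeR, none of the tested members differed between mutants and wild types past the threshold in either strain. In C57BL/6, 0 of the 8 members other than H2-Ea-ps were called by edgeR, beside 23.9% of all genes, and 0 had an unadjusted p under 0.05, beside 39.2%. In BALB/c, 0 of 9 were called, beside 0.136% of all genes, with 2 at an unadjusted p under 0.05, beside 11.7%. DESeq2 called 1 member there, beside 323 of all 16190 genes, against 22 in edgeR. The members' median log2 difference, mutant minus wild type, was 0.15 over these 8 in C57BL/6, beside -0.00 over all genes, and -0.05 over all 9 in BALB/c, beside 0.00. H2-Ea-ps, at 0 counts in C57BL/6, carries no information on genotype there or on the interaction.

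Among the chains that present antigen, the mutant difference in C57BL/6 was 0.29 log2 units for H2-Aa (95% interval -0.18 to 0.75), 0.35 for H2-Ab1 (-0.12 to 0.82) and 0.30 for H2-Eb1 (edgeR adjusted p = 0.480). C57BL/6 mutant replicates 4 and 6 held the highest H2-Aa, H2-Ab1, H2-Eb1 and Cd74 levels of all 12 samples, while replicate 5 of the same group lay within the C57BL/6 wild type range of H2-Aa and H2-Eb1 and below that of H2-Ab1 and Cd74. In BALB/c the difference was -0.05 for H2-Aa (-0.53 to 0.44), 0.15 for H2-Ab1 (-0.33 to 0.62), 0.10 for H2-Ea-ps (-0.62 to 0.82) and -0.05 for Cd74 (-0.30 to 0.20). In C57BL/6 Cd74 differed by 0.11 (-0.13 to 0.36), the narrowest interval of the members there. H2-DMb1 differed by -0.02 in C57BL/6 (adjusted p = 0.976).

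The 2 members with an unadjusted p under 0.05 in BALB/c were both DM chains. H2-DMa was lower in all 3 BALB/c mutants than in any BALB/c wild type (6.93 ± 0.608 against 4.65 ± 0.109 CPM), a log2 difference of -0.57 (95% interval -0.89 to -0.26, unadjusted p = 0.00183) that missed the threshold in edgeR (adjusted p = 0.147) and passed it in DESeq2 (adjusted p = 0.0230). Non-overlapping ranges in that direction were found for 10% of all genes (1623 genes). The authors' deposited table gives -0.49 with q = 0.333 for H2-DMa. H2-DMb1 differed by -0.79 in BALB/c (edgeR adjusted p = 0.416), on at most 16 deposited counts. In C57BL/6 the H2-DMa difference was -0.22 (adjusted p = 0.295), and the difference between the strains' genotype effects was -0.35 (adjusted p = 0.272). For the interaction, 0 of the 8 members other than H2-Ea-ps were called by edgeR, beside 10% of all genes (1626 genes), and 0 had an unadjusted p under 0.05, beside 29.5%.

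**Figure D3:**
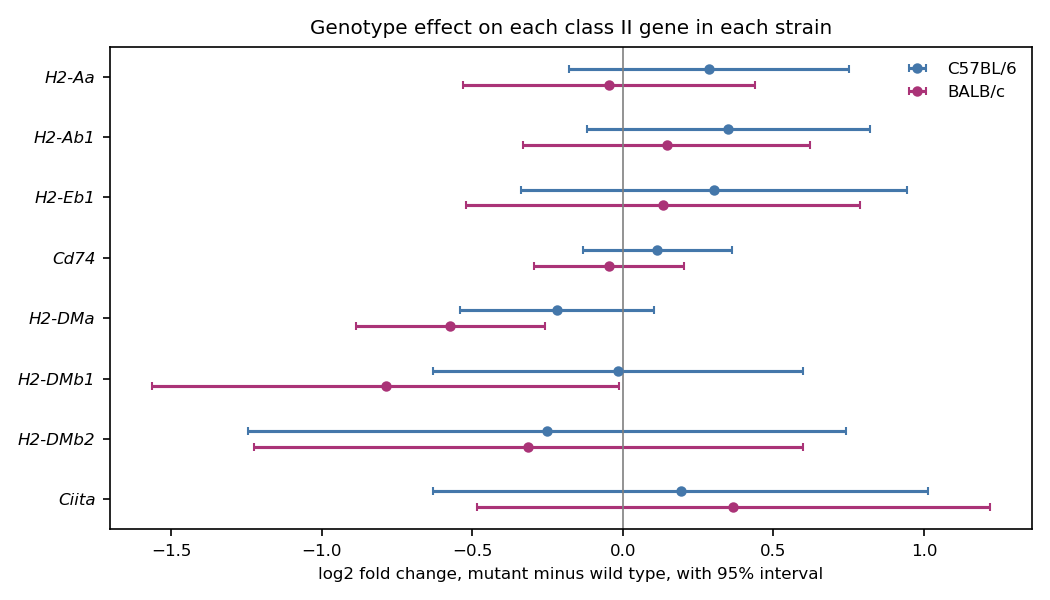
Log2 difference between mutants and wild types for 8 members, in C57BL/6 and BALB/c, with 95% intervals from the edgeR fit (n = 3 a group); H2-Ea-ps and H2-Oa are left out. The intervals hold 0 except those of H2-DMa and H2-DMb1 in BALB/c, which did not pass the adjusted threshold.

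Of the 10 members, 8 lie within 252.3 kb of chromosome 17, between H2-Oa and H2-Ea-ps, together with genes of class I presentation. The region holds 15 rows of the table, of which 13 were tested, and strain effects in both directions were called within it. H2-DMa and H2-DMb2 were higher in BALB/c wild type and H2-DMb1, next to them, was lower. H2-Ab1, H2-Aa and H2-Eb1 lie side by side and had negative values, of which that of H2-Aa was called. Beyond H2-DMb1, the peptide transporter genes Tap1 (log2 0.48 in wild types, edgeR adjusted p = 0.00223) and Tap2 (0.55, adjusted p = 0.000130) and the immunoproteasome gene Psmb8 (0.54, adjusted p = 0.0226) were higher in BALB/c. The same 3 genes were also called higher in BALB/c mutants, at 0.48, 0.34 and 0.93. The immunoproteasome gene Psmb9 was called higher in BALB/c mutants (0.68, adjusted p = 0.0341) and not in wild types (0.18), and Brd2 in wild types (0.58, adjusted p = 0.00128) and not in mutants (0.15). H2-Ob, the beta chain that pairs with H2-Oa, differed by 0.17 in wild types and 1.45 in mutants (adjusted p = 0.0576), and did not pass. The effect of sequence differences between the haplotypes on the alignment of BALB/c reads to a C57BL/6 reference was not tested.

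**Figure D4:**
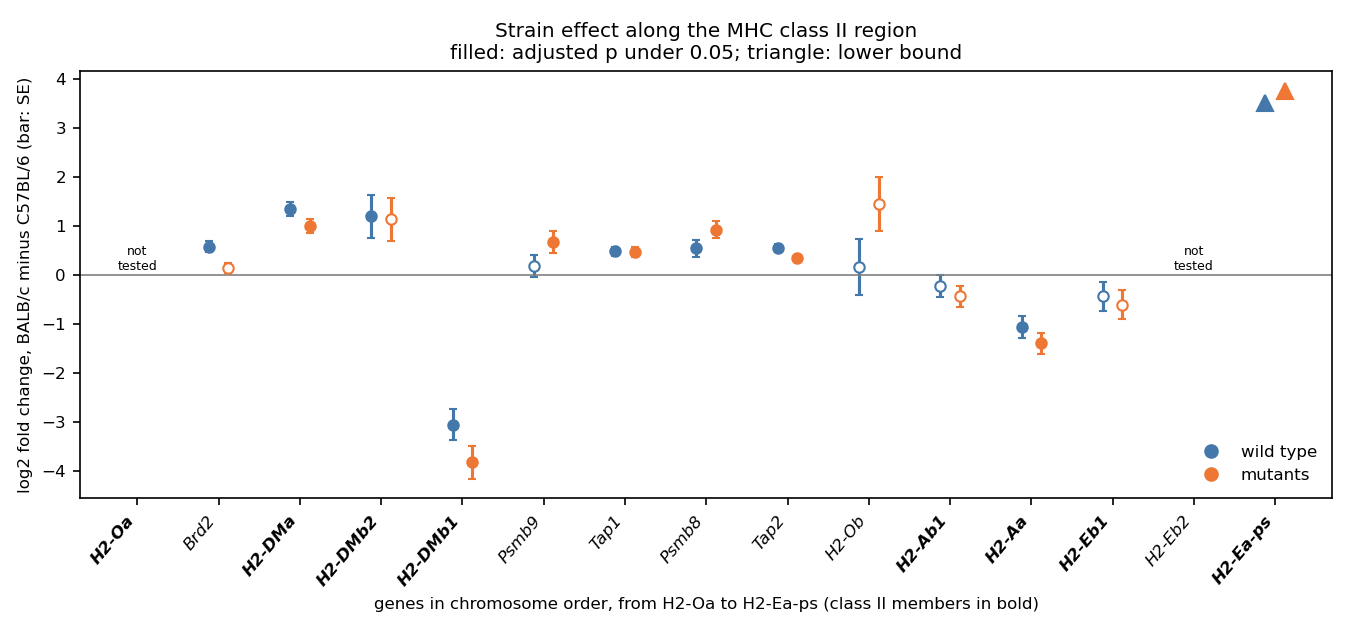
Log2 difference, BALB/c minus C57BL/6, of 13 tested genes between H2-Oa and H2-Ea-ps in chromosome order (H2-Oa and H2-Eb2 were not tested), with SE bars, in wild types and mutants (n = 3 a group). H2-DMb1 at -3.06 and -3.83 lies between H2-DMb2 and Psmb9, which are at or above 0, and the triangles of H2-Ea-ps mark lower bounds.

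The proteins that bind class II promoters were expressed in each group, and 7 of 7 were tested. Between wild types, 4 of 7 were called, beside 48.5% of all genes. Of these, 1 was higher in BALB/c, the RFX subunit Rfxap (log2 0.77, edgeR adjusted p = 3.13e-05), and 3 were lower: the RFX subunit Rfxank (-0.58, adjusted p = 0.000382), Creb1 (-0.42, adjusted p = 0.000343) and the NF-Y subunit Nfya (-0.25, adjusted p = 0.00455). Between mutants, Rfxap (0.59) and Nfyb (0.19) were higher and Rfxank (-0.58) and Creb1 (-0.31) lower, beside 18% and 18.9% of all genes. None of the 7 was called by genotype in C57BL/6 or BALB/c or for the interaction, beside 23.9%, 0.136% and 10% of all genes. At an unadjusted p under 0.05 there were 2, 1 and 1, beside 39.2%, 11.7% and 29.5% of all genes. On total counts, 2 were called lower in C57BL/6 mutants and 1 for the interaction, beside 28.9% and 11.4% of all genes called in either direction.

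Most of the listed enzymes that process the invariant chain and antigen were higher in C57BL/6 mutants than in their wild types. Of 6 genes, 5 were called higher in C57BL/6 mutants, among them the thiol reductase Ifi30 (log2 0.58, edgeR adjusted p = 0.00134), the cathepsin Ctsb (0.46, adjusted p = 0.00184) and the endopeptidase Lgmn (0.39, adjusted p = 0.00121). Of all genes, 11.3% were called higher in this comparison. The cathepsin Ctss, which makes the last cuts in the invariant chain, differed by 0.06 (adjusted p = 0.767) and did not pass. In BALB/c 0 of 6 were called, beside 0.136% of all genes, and 0 had an unadjusted p under 0.05, beside 11.7%. The difference between the strains' genotype effects was called for 5 of 6 and negative in each, beside 4.58% of all genes called in that direction, at -0.66 for Ifi30 (adjusted p = 0.0101), -0.50 for Ctsl (0.0162) and -0.48 for Ctsd (0.00887). On total counts it was called for 3 of 6, beside 11.4% of all genes in either direction. The sum of 10 macrophage markers was 329 to 409 CPM in C57BL/6 wild type, 539 to 621 CPM in C57BL/6 mutants, and 400 to 456 and 399 to 423 CPM in BALB/c wild type and mutants. Csf1r and Cd68 held most of the C57BL/6 difference, with means of 203 and 74.2 CPM in wild type and 344 and 141 CPM in mutants. In C57BL/6 mutants 2 of the 10 were called higher, beside 11.3% of all genes, and 8 were not called, with a median log2 difference of 0.17. Their part in the protease values was not tested. In wild types, 4 of 6 were higher in BALB/c, beside 22.8% of all genes, led by Ctsl (0.74, adjusted p = 2.47e-05). In mutants 1 was higher (Ctsl, 0.23), beside 18%, and 2 were lower (Ifi30, -0.52, and Ctsb, -0.24), beside 18.9%.

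Interferon gamma itself was at or near 0, with at most 4 deposited counts in a library. Of 9 tested genes of its pathway, 5 were higher in C57BL/6 mutants, beside 11.3% of all genes, led by the receptor chain Ifngr1 (log2 0.46, edgeR adjusted p = 0.00770), the feedback inhibitor Socs1 (0.38, adjusted p = 0.0414) and the kinase Jak2 (0.36, adjusted p = 0.00772). In BALB/c mutants 0 were called by edgeR, beside 0.136% of all genes, with 1 at an unadjusted p under 0.05, beside 11.7%. The interaction was called for 2 of the 9, Socs1 (-0.59, adjusted p = 0.0468) and Ifngr1 (-0.54, adjusted p = 0.0343), beside 4.58% of all genes called in that direction. On total counts, which put the median of all genes at -0.20 in the C57BL/6 comparison, 1 of the 9 was called higher in C57BL/6 mutants. With that scaling 28.9% of all genes were called in either direction. Between wild types, Socs1 (1.70, adjusted p = 2.31e-06) and Ifngr1 (0.29) were higher in BALB/c. Between mutants, Socs1 (1.11) and Irf8 (0.48) were higher and Jak2 (-0.46) and Jak1 (-0.36) lower. Of 3 genes of class II turnover, Cd83 was called and March1 and March8, which mark proteins for degradation, were not called in any comparison. Cd83, a membrane protein that keeps class II molecules at the cell surface, was higher in BALB/c (1.21 in wild types, adjusted p = 2.11e-05, and 0.38 in mutants) and in C57BL/6 mutants (0.37, adjusted p = 0.0447). In BALB/c its genotype difference was -0.46 (adjusted p = 0.152), and the interaction was called (-0.83, adjusted p = 0.0140).

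Class I presentation genes were called in both directions between strains. Of 11 genes, 5 were higher and 3 lower in BALB/c wild type, beside 48.5% of all genes called, and 5 higher and 4 lower in BALB/c mutants, beside 36.9%. Nlrc5, which does for class I promoters what Ciita does for class II, was lower in BALB/c by -1.34 log2 units in wild types (edgeR adjusted p = 0.00260) and -1.13 in mutants (adjusted p = 0.00770). The classical class I chains H2-K1 (-0.43 and -0.76) and H2-D1 (-0.26 and -0.59) were also lower, and the nonclassical chain H2-T23 was higher (0.81 and 0.68). In C57BL/6 mutants 2 of 11 were called, Tap2 (0.37) and H2-D1 (0.31), both higher than in wild type, beside 11.3% of all genes.

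Markers of the cells that carry class II did not all follow the members. The 9 dendritic cell markers summed to 13.3 to 16.2 CPM in C57BL/6 wild type, 13.9 to 15.6 in C57BL/6 mutants, 12.2 to 15.9 in BALB/c wild type and 13.9 to 15.2 in BALB/c mutants, with overlap throughout. Cd207, a Langerhans cell lectin, had at most 4 deposited counts in any sample. Of the 7 tested, 0 were called between wild types by edgeR, beside 48.5% of all genes, with 0 at an unadjusted p under 0.05, beside 55.2%. Between mutants, 1 of the 7 was called lower in BALB/c, beside 18.9% of all genes. The sum of 7 B cell markers was 12.1 to 25.6 CPM in C57BL/6 wild type, 8.63 to 14.5 in C57BL/6 mutants, 35.9 to 40.8 in BALB/c wild type and 55.0 to 73.4 in BALB/c mutants. Of these, 5 of 7 were called higher in BALB/c wild type, beside 22.8% of all genes, and 6 of 7 in BALB/c mutants, beside 18%. In C57BL/6 mutants 1 of 7 was called lower, beside 12.6% of all genes. For the interaction 3 of 7 were called, all positive, beside 5.46% of all genes called in that direction. Between genotypes within BALB/c, 0 of 7 were called by edgeR, beside 0.136% of all genes, with 3 at an unadjusted p under 0.05, beside 11.7%. Of the 10 macrophage markers, 1 was called higher in BALB/c between wild types, beside 22.8% of all genes. Between mutants, 4 of the 10 were called lower in BALB/c, beside 18.9%. The 5 T cell markers summed to at most 4.97 CPM in any sample. Of 3 tested, 1 was called higher in BALB/c wild type (22.8% of all genes), 2 in BALB/c mutants (18%), and 1 lower in C57BL/6 mutants (12.6%). Cd3e (0 to 6 deposited counts in C57BL/6 samples) and Cd3d (2 to 16) passed the filter only through BALB/c. The strain calls were therefore not independent of the filter. In C57BL/6, Cd3e had 2 to 6 counts in wild type and 0 to 2 in mutants, while Cd4 averaged 2.33 and 3.76 CPM. The part of these markers in the members' values was not tested.

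Variation within groups was alike for some members and not for others. After group means were removed from log2 CPM, the Pearson correlation over the 12 samples was 0.805 for H2-Ab1 with H2-Eb1, 0.76 for H2-Eb1 with H2-DMa and 0.728 for both H2-Ab1 and H2-Eb1 with Cd74, against 0.339 for H2-Aa with H2-Ab1. For Ciita it was -0.387 with H2-Aa, -0.234 with H2-Ab1, -0.301 with H2-Eb1, -0.361 with H2-DMa, -0.305 with H2-DMb1, 0.178 with Cd74, 0.529 with H2-DMb2 and 0.531 with H2-Ea-ps. H2-Ea-ps was at 0 counts in all 6 C57BL/6 samples, so its variation comes from the 6 BALB/c samples only. Samples of a group share a run, and each correlation rests on few counts, so these are descriptions. Among 13870 genes with a mean of at least 1 CPM that are no members, those most like H2-Aa by this measure were Nkd2 (0.954), Marveld2 (0.938), Kcnj5 (0.907), Mtmr7 (0.907) and B9d1 (0.906). Those most like Cd74 were Slc41a3 (0.941), Ovca2 (0.936), Ddb2 (0.931), Trak1 (0.93) and Nov (0.928), and those most like Ciita were Tiam1 (0.938), Arsj (0.921), Fam190a (0.891), Syde2 (0.878) and Cog8 (0.869).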

How the data were processed

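RNA sequencing counts of 12 samples were analysed. The authors deposited raw read counts per gene, RPKM values and a coding length, and a table of group comparisons giving a log2 fold change with its p-value and q-value. The submitters' processing notes list bcl2fastq, TopHat2 2.0.6, HTSeq, DESeq2 and mm10 without roles. The annotation and strand setting are not given in the sources used here. RPKM values were used only to check scaling. Of the value columns, 0 belonged to no sample.

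Counts were fitted with edgeR 4.0.16 in R 4.3.3 (filterByExpr, minimum count 10 and total 15, trimmed mean of M values scaling). The filter left 16190 of 23358 rows. One quasi-likelihood model held 4 group means, and p-values were adjusted over all tested genes by the Benjamini-Hochberg method at 0.05. Log2 CPM used a prior count of 2. The scripts were tested on simulated data. Alternatives were DESeq2 1.42.0, limma-voom (limma 3.58.1), other scaling, no filter, the compared groups alone, each replicate left out, and halved counts, the last chosen after seeing the data.

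The members and gene lists were chosen with earlier results of these data known. All 10 members are named. Pathway genes are named where called with a mean of at least 1 CPM, up to 3 a direction. Some genes that this rule would name are not reported here. Nothing says that samples came from separate animals, so p-values measure the spread between these samples, which may be technical.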

Additional observations from a re-analysis of the deposited data

How the results depend on the processing

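Of 40 results for single members other than H2-Ea-ps, whose strain calls the filter fixed, 34 kept their side of the threshold in each alternative run, 6 changed in at least 1, and 0 changed sign while called. The 40 include the strain results of H2-DMb2, which also passed the filter only through BALB/c. With H2-Ea-ps included, the number of members called was 4 or 5 in the wild type strain comparison, where the alternatives called 38.3% to 50.2% of all genes, and 4 to 6 in that of mutants (27.3% to 39.3%), 0 for genotype in C57BL/6 and for the interaction, and 0 for genotype in BALB/c except with DESeq2, which called 1 (H2-DMa) and 323 of all 16190 genes, against 22 in edgeR. With single replicates left out the same ranges held, 4 to 5 and 4 to 6, and 0 for genotype and the interaction. Scaling by total counts moved the median of all genes to -0.116 log2 units between wild types of the strains and 0.112 between mutants. For genotype it became -0.201 in C57BL/6 and 0.0344 in BALB/c, and for the interaction 0.238. No paired analysis was possible because the replicate numbers are not shared between groups. Depth limits H2-Oa, H2-DMb2 and, in BALB/c, H2-DMb1, which had at most 16 deposited counts there.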
